A study of Mus musculus with 29 samples.

Results

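Gene expression in splenic Ly6Chi macrophages that lack RNase T2 was compared here with that in the same macrophages of wild-type mice. The groups were taken as the sample labels give them, with 3 RNA-seq libraries from *Rnaset2*-/- mice and 3 from wild-type mice, 6 of the 29 libraries of the series. The test took in 10398 of 23930 genes in the table, those that reached 1 RPM in 3 or more of these 6 libraries. RPM is the number of reads of a gene scaled to the same total of counted reads in every library. *Rnaset2*-/- mice lack both mouse genes for the enzyme, Rnaset2a and Rnaset2b, and wild-type mice were C57BL/6. No treatment was given, and the age of these mice is not given in the sources used here. Splenocytes were first depleted with magnetic beads of cells bearing CD3, NK1.1, Ly6G, TER-119 or another lineage antigen, and CD11b+ cells with high Ly6C that lacked Ly6G, Siglec-F and NK1.1 were then sorted, as the labels give it. According to the methods of the study these cells were also gated as low for CD16.2, the IgG receptor encoded by *Fcgr4*, and Ly6Clow cells as high for it. Nothing in the labels says that libraries of a group came from separate animals, so p-values measure the spread between these libraries, which may be technical. A gene was said to have risen or fallen when it changed by >1.5-fold and its adjusted p in limma was below 0.05, and log2 fold changes are *Rnaset2*-/- over wild-type on the scale of log2(RPM + 1) after scaling between libraries.

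RNase T2 is an endolysosomal enzyme that cuts single-stranded RNA, and RNA builds up in endosomes when it is absent. TLR13 is a mouse endosomal receptor for a stretch of bacterial 23S ribosomal RNA, and like TLR3, TLR7 and TLR9 it reaches endosomes with the chaperone Unc93B1. Ly6Chi cells of the spleen correspond to classical monocytes, which leave the bone marrow through the chemokine receptor CCR2, can still divide when freshly made, and lose Ly6C as they turn into patrolling Ly6Clow cells. The genes for RNase T2 and for Ly6C were not analysed here, so the genotype and the sorting marker could not be read from the RNA.

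The cell type was therefore checked with other genes. The summed level of 17 classical monocyte markers was 35559.5 to 36521 RPM in the wild-type Ly6Chi libraries and 17096 to 18606 RPM in wild-type Ly6Clow libraries of the same organ. That of 14 patrolling monocyte markers ran the other way, with 5726 to 6478 RPM and 20080.1 to 22162 RPM. In *Rnaset2*-/- Ly6Chi macrophages the sums were 31031 to 39785 and 6385 to 7303 RPM, and in both genotypes the classical sum was the larger. The receptor *Csf1r*, which monocytes and macrophages need to survive, was 743 to 812 RPM in wild-type and 695 to 1009 RPM in *Rnaset2*-/- libraries. The Ly6Chi libraries held 14280906 to 14415756 reads in wild-type and 20404155 to 21167602 reads in *Rnaset2*-/- macrophages. *Rnaset2*-/- Ly6Clow libraries held 14059645 to 14193723 reads and wild-type Ly6Clow libraries 14237202 to 14572065. When reads of the Ly6Chi libraries were thinned to 1 depth, 995 genes rose and 1306 fell. Thinning evens depth only, and a separate preparation or run of the deeper libraries, which was not tested, could not be told apart from genotype. A level of 3 reads in the Ly6Chi libraries, given for scale and not used in the tests, was 0.142 to 0.210 RPM. The *Rnaset2*-/- Ly6Chi libraries differed more among themselves, with a median SD of 0.19 on the log2 scale against 0.11 in wild-type, and 7504 of 10398 genes had the larger SD in *Rnaset2*-/- libraries.

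Between the genotypes 2311 of 10398 tested genes changed, or 22.2%. Of these, 1016 genes rose (9.77%) and 1295 fell (12.5%), and the median log2 fold change over all tested genes was 0.01. The counts given for gene lists below are to be read against these shares. Surface receptors and granule proteins of myeloid progenitors were among the genes that rose most, and genes of NK and T cells among those that fell most. Without the scaling factors, the median of all genes was lower by 0.11, and 733 rose and 1620 fell, so that higher genes were 31.2% of all changed genes in place of 44.0%. In this fit as in all the others that were tried, 0 genes changed in the opposite direction.

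**Figure D1:**
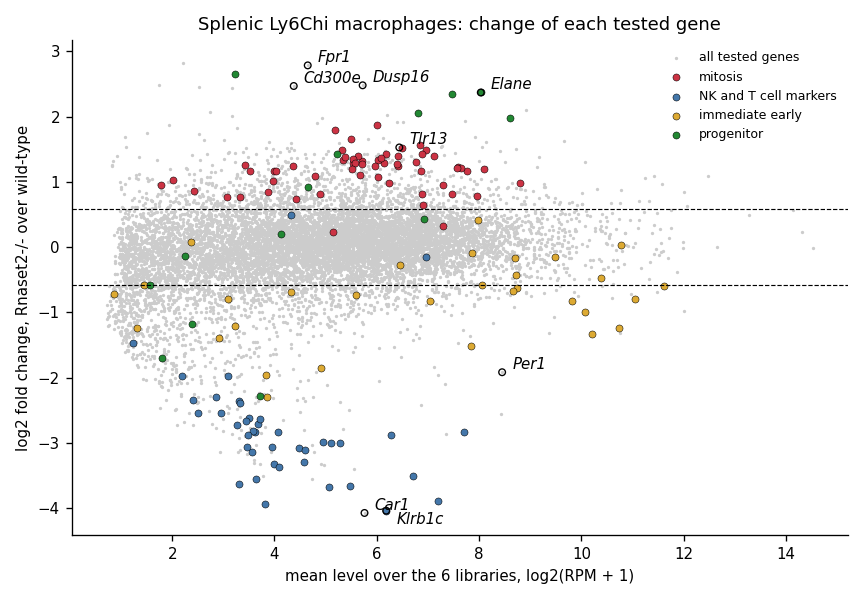
The log2 fold change of each of the 10398 tested genes, *Rnaset2*-/- over wild-type, is plotted against its mean level over the 6 libraries as log2(RPM + 1), and dashed lines mark 1.5-fold. All 59 mitosis genes (red) lie above 0, markers of NK and T cells (blue) lie mostly below -2, and immediate early genes (yellow) lie mostly below 0.

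Of the genes with a mean of at least 10 RPM over the 6 libraries, the one that rose most was *Fpr1*, which encodes a receptor for bacterial formyl peptides and lies on chromosome 17 from 17876471 to 17883940 (GRCm38). It was 5.34, 5.48 and 6.23 RPM in the wild-type libraries and 35.8, 54.7 and 37.2 RPM in the *Rnaset2*-/- libraries. The log2 fold change was 2.79 ± 0.184 (SE, n = 3 per group, adjusted p = 4.55e-06 in limma). *Dusp16*, a phosphatase that inactivates JNK and p38 kinases, was 15.1, 17.6 and 14.4 RPM in wild-type and 80.3, 121 and 62.6 RPM in *Rnaset2*-/- macrophages. *Cd300e*, an activating receptor of monocytes, was 4.09, 6.52 and 6.79 RPM and 30.7, 40.9 and 29.7 RPM. The 3 *Rnaset2*-/- libraries differed by less than 2-fold in each of these genes, and the log2 fold changes were 2.79, 2.48 and 2.47. *Ly6i*, which belongs to the Ly6 family of surface proteins, and *Tmx1*, an oxidoreductase of the endoplasmic reticulum, were even across the *Rnaset2*-/- libraries. *Ly6i* was 30.3, 32.1 and 27.0 RPM in wild-type and 113, 120.4 and 110.1 RPM in *Rnaset2*-/- libraries, and *Tmx1* was 38.6, 33.8 and 47.8 RPM and 133, 149 and 141 RPM. The other genes among the 15 of this level that rose most were *Elane*, *Ctsg*, *Prtn3*, *Ms4a3*, *Prss57*, *Mgst2*, *Wfdc21*, *Prg2*, *Fcgr4* and *Nusap1*, with log2 fold changes of 1.87 to 2.37.

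Of the 15 genes of at least 10 RPM that fell most, *Klrb1c*, *Klra8*, *Il2rb*, *Klre1*, *Klra9*, *Gzmb*, *Gzma*, *Ctsw*, *Cd3g*, *Gimap3* and *Gimap8* are known from NK and T cells. *Klrb1c*, which encodes the NK1.1 antigen that the depletion and the sort both used, was 144, 136 and 128 RPM in wild-type libraries and 4.68, 10.8 and 5.89 RPM in *Rnaset2*-/- libraries, and its log2 fold change was -4.04 ± 0.237 (SE, adjusted p = 2.19e-06). *Car1*, a carbonic anhydrase of red cell precursors, fell from 101 ± 1.93 to 5.04 ± 2.53 RPM (mean ± SD, n = 3). *Sidt1*, which encodes a transmembrane protein linked to the transport of RNA, fell from 24.3 ± 1.66 to 1.11 ± 0.317 RPM, a log2 fold change of -3.50. *Ablim1*, an actin-binding protein, and *Adamts14*, a secreted protease, had log2 fold changes of -3.34 and -3.55. The *Klra* genes are near-identical paralogs, and how reads were divided among them is uncertain.

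Markers of cells that the sort should leave out moved with the genotype, and their levels bear on the results below. The NK cell list fell in 20 of 21 tested members (median log2 fold change -3.07), and its summed level was 1516 to 1594 RPM in wild-type and 153 to 297 RPM in *Rnaset2*-/- libraries. The T cell list fell in 19 of 20 members (-2.78), with sums of 614 to 644 RPM and 66.0 to 111 RPM. *Cd3e*, a chain of the T cell receptor complex, was 44.5, 39.7 and 41.8 RPM in wild-type and 7.89, 2.06 and 2.66 RPM in *Rnaset2*-/- libraries, and *Rnaset2*-/- replicate 1 held the most of it. *Ifng*, the cytokine of NK and T cells, fell from 23.5 ± 1.03 to 2.47 ± 0.819 RPM. In each list, 13 markers still had at least 1 RPM in every *Rnaset2*-/- library, and only Cd160 of the NK list was at 0 in all 3. In bulk RNA, fewer cells of a type and less RNA per cell cannot be told apart.

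B cell markers fell in 9 of 10 tested members (median -1.53), with sums of 236 to 246 RPM and 68.4 to 70.1 RPM. Plasma cell markers fell in 7 of 9 (-1.07), led by *Jchain*, the joining chain of secreted antibodies, which was 627, 553 and 609 RPM in wild-type and 76.4, 125 and 83.1 RPM in *Rnaset2*-/- libraries. Dendritic cell markers fell in all 15 tested members (-1.77), among them *Siglech* of plasmacytoid cells (41.1 to 4.70 RPM), *Clec9a* of cross-presenting cells (40.1 to 6.53 RPM), *Ccr7* and *Flt3*. Erythroid markers fell in 8 of 9 (-1.28), with sums of 157 to 167 RPM and 9.54 to 26.3 RPM, and 3 of them fell when any 1 of the wild-type libraries was left out. Without a wild-type library, a marker below 1 RPM in every *Rnaset2*-/- library no longer met the filter and was not tested, which can lower this count. In the test of all 6 libraries such a marker could enter these lists through the wild-type libraries alone. Red pulp macrophage and Kupffer cell markers fell in 6 of 11 (-0.89), and platelet markers in 0 of 7. Of 3 tested endothelial markers 1 fell. In contrast to these lists, the granule protein genes *Prg2* and *Epx* of eosinophils rose, with sums for eosinophil, basophil and mast cell markers of 196 to 206 RPM and 423 to 634 RPM. This list had 4 members that rose and 4 that fell of 10. *Siglecf*, whose protein the labels give as negative on the sorted cells, was 3.47 to 6.02 RPM in wild-type and 6.47 to 16.3 RPM in *Rnaset2*-/- libraries, and its change did not pass the test without wild-type replicate 1 or 2. Of the 1295 genes that fell, 89 were in these lists, and the part of other cells in the remaining genes was not tested.

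**Figure D2:**
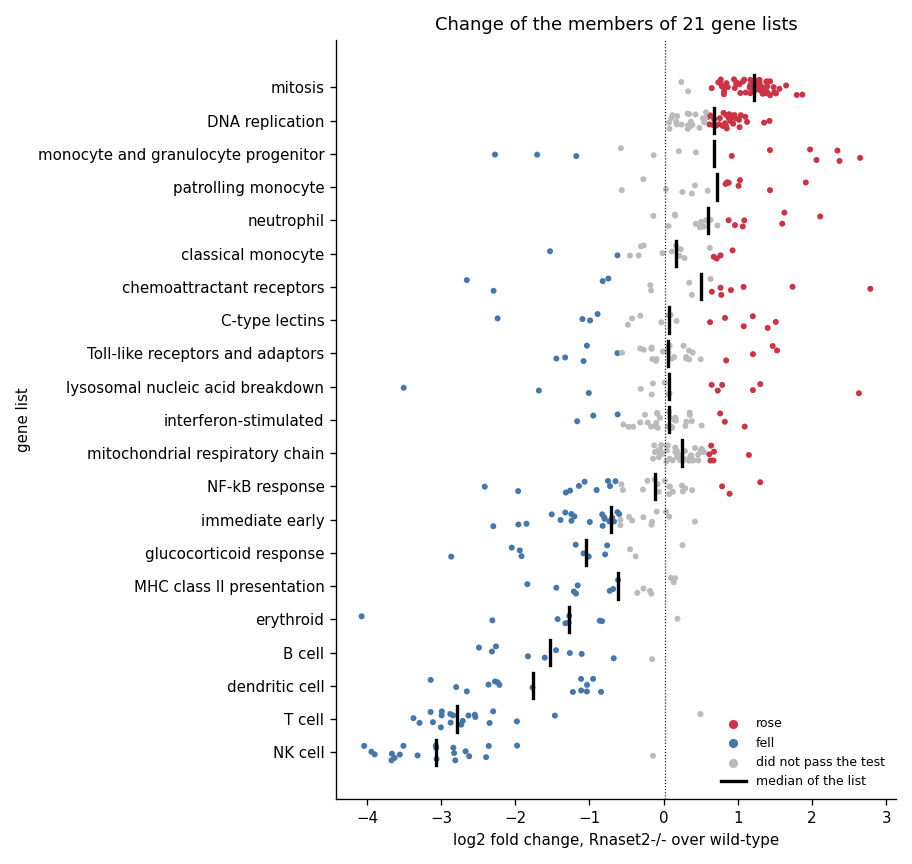
Log2 fold changes of the tested members of 21 gene lists are shown, each point a gene (red, rose; blue, fell; grey, did not pass the test), with a black bar at the median of the list and a dotted line at the median of all tested genes. Mitosis genes form the highest cluster, with a median of 1.22, and NK cell markers the lowest, with a median of -3.07.

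Genes of cell division rose together. Of 59 tested mitosis genes 57 rose and 0 fell, against 9.77% and 12.5% of all tested genes, and their median log2 fold change was 1.22. Of 52 DNA replication genes 30 rose and 0 fell, with a median of 0.67. *Nusap1*, which bundles the microtubules of the mitotic spindle, led the first list, at 28.0, 27.3 and 29.6 RPM in wild-type and 91.3, 92.7 and 111 RPM in *Rnaset2*-/- macrophages. *Anln*, a scaffold of the cleavage furrow, was 16.7, 16.4 and 14.1 RPM and 39.8, 46.2 and 78.9 RPM. *Tpx2*, an activator of Aurora A kinase, was 21.4, 20.7 and 24.5 RPM and 67.1, 56.7 and 76.2 RPM. The wild-type libraries were nearly level in these genes, and each *Rnaset2*-/- library lay above all of them, which was so for 18.7% of tested genes. *Bub1b* of the spindle checkpoint and *Cdca8* of the chromosomal passenger complex rose by 1.56 and 1.51 on the log2 scale, and the proliferation marker *Mki67* rose by 0.96. The mitosis genes that did not pass the test were *Pttg1* and *Racgap1*, named here because they were the exceptions, with log2 fold changes of 0.24 and 0.33.

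In DNA replication the helicase subunit *Cdc45* changed most, from 11.6, 12.3 and 14.1 RPM in wild-type to 24.4, 32.8 and 44.1 RPM in *Rnaset2*-/- libraries. It was followed by *Tyms* and *Dut*, which supply and protect the thymidine pool, with log2 fold changes of 1.35 and 1.12. *Uhrf1*, which recruits the maintenance DNA methyltransferase, and *Rrm1*, the large subunit of ribonucleotide reductase, rose by 1.10 and 1.04. The 3 *Rnaset2*-/- libraries differed in the size of the shift, with median differences from the wild-type mean of 1.07, 1.18 and 1.43 for mitosis and 0.46, 0.60 and 0.95 for replication genes in replicates 1, 2 and 3. Replicate 3 was highest in both. In 1 fit of all 13 splenic libraries, which takes the larger spread of the Ly6Clow libraries into the test, 23 mitosis genes and 12 replication genes rose. With any 1 of the 6 libraries left out, the counts were 52 to 57 mitosis genes and 23 to 34 replication genes.

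**Figure D3:**
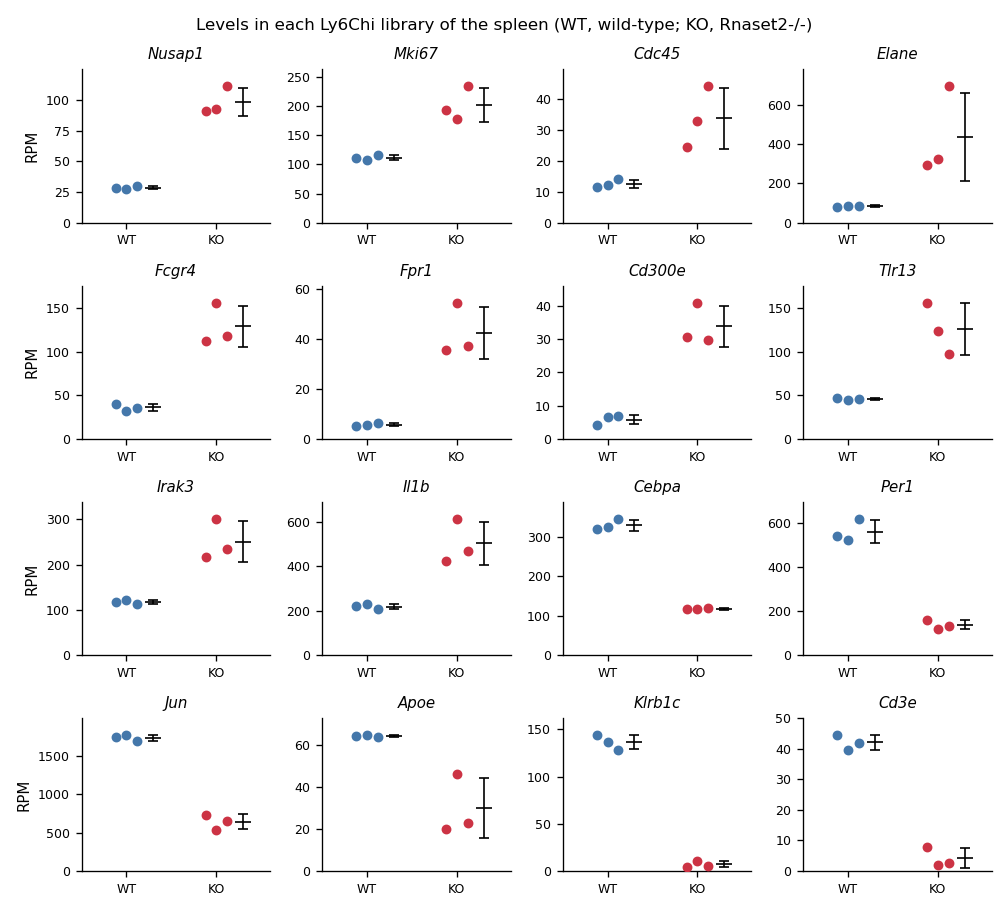
RPM of 16 genes are shown for each library (blue, wild-type; red, *Rnaset2*-/-) with the mean and SD (n = 3) beside the points, on axes that start at 0. The scales differ between panels, and in *Elane* 1 of the *Rnaset2*-/- libraries, at 292, 326 and 695 RPM for replicates 1, 2 and 3, stands above the other 2.

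The promoters of the mitosis and DNA replication genes were examined for sequence elements known to time transcription in the cell cycle. The CHR element (TTTGAA) is bound by the DREAM and B-MYB complexes, the CCAAT box (CCAAT) by NF-Y, and E2F factors bind TTTCCCGC and TTTGGCGC. Every match on both strands, overlapping ones included, was sought. RefSeq promoter windows (GRCm38.p6), from 250 bases before to 50 bases after the start of transcription, were used. A window was found for 50 of 59 mitosis genes, 43 of 52 replication genes and 8040 of 10398 tested genes. The CHR was present in 69.1% of mitosis windows, 11.8% of replication windows and 12.1% of windows of tested genes (17.9% of all 32851 windows). The E2F letters were present in 7.27%, 27.5% and 3.06% (1.56% of all windows), and the CCAAT box in 74.5%, 58.8% and 37.4% (37.4% of all windows). These shares describe the 2 lists and not the changes in these libraries. The CHR was present in 21.5% of windows of all genes that rose, mitosis genes among them, and in 11.6% of those that fell. The E2F letters were present in 5.3% and 1.55% of them, and the CCAAT box in 44.7% and 33.5%. In mitosis windows 68.0% of CHR matches lay in the last 100 bases, the part around the start, against 24.1% in windows of tested genes. Within the mitosis list the element did not go with the size of the change, since the median log2 fold change was 1.22 in 35 genes with a CHR and 1.23 in 15 genes without it. *Nusap1*, the mitosis gene that rose most, was among the latter.

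The windows printed are those of the 3 mitosis genes with the largest rise that held both a CHR and a CCAAT box, and of the replication gene with the largest rise that held an E2F match and a CCAAT box. They are written 5′ to 3′ on the strand of the gene, and capitals mark the matches of all these elements. *Bub1b* lies on the plus strand at chr2:118597961-118598260, *Cdca8* on the minus strand at chr4:124936868-124937167, *Ncapg*, a condensin subunit, on the plus strand at chr5:45669675-45669974, and *Dnmt1*, the maintenance DNA methyltransferase, on the minus strand at chr9:20952574-20952873.
Bub1b: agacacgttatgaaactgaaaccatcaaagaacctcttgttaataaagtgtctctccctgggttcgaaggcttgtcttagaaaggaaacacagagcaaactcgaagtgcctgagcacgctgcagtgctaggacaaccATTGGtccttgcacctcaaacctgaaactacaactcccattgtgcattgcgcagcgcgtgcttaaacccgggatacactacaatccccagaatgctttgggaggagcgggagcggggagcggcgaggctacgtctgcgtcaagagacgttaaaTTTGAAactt
Cdca8: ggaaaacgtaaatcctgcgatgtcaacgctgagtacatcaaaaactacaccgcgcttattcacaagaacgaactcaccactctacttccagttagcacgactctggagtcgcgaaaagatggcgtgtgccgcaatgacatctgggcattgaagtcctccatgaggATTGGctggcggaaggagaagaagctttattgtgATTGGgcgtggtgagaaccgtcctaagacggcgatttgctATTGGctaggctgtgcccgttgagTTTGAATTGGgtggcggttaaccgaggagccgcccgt
Ncapg: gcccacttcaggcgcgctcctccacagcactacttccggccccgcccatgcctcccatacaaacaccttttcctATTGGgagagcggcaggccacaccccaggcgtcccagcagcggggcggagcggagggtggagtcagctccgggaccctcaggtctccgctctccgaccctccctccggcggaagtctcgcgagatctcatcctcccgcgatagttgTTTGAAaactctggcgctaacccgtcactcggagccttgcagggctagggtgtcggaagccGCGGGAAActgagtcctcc
Dnmt1: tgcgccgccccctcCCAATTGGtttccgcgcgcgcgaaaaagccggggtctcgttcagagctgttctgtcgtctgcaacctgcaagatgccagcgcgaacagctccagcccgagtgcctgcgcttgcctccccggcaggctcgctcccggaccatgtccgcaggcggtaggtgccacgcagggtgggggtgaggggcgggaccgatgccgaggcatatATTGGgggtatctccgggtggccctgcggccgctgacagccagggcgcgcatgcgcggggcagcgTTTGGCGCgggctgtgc
The *Bub1b* window held 1 CHR and 1 CCAAT box, and that of *Ncapg* held 1 CHR, 1 CCAAT box and 1 E2F match. That of *Cdca8* held 1 CHR and 4 CCAAT boxes, 1 of which overlaps the CHR by a base, and that of *Dnmt1* held 1 E2F match and 3 CCAAT boxes, 2 of which overlap on opposite strands. The log2 fold changes of these genes were 1.56, 1.51, 1.49 and 0.88, and a match of letters is not a measured binding site.

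Among genes that restrain division, 2 of 14 rose and 3 fell. The CDK inhibitor *Cdkn2c* and the stress gene *Gadd45a* rose by 0.91 and 0.81, and *Tob1*, *Gadd45b* and *Gadd45g* fell by 1.23, 0.73 and 0.73. Of 24 genes of ribosome assembly in the nucleolus 1 rose and 1 fell, with a median of -0.18. Only 12 genes of cytosolic ribosomal proteins could be tested, of which *Rpl30* fell by 0.65, a change that did not pass without *Rnaset2*-/- replicate 2. In energy metabolism, 4 of 14 glycolysis genes rose and 1 fell, and *Gpi1* and *Aldoa*, early enzymes of the pathway, rose by 0.93 and 0.89. The respiratory chain had 6 of 45 genes that rose, against 9.77% of all tested genes, led by *Ndufs6* of complex I at 20.2, 21.9 and 18.6 RPM in wild-type and 47.2, 41.9 and 38.7 RPM in *Rnaset2*-/- libraries. Without scaling factors, 2 glycolysis genes and 1 gene of the respiratory chain rose. In sterol synthesis and uptake, 1 of 21 rose and 2 fell, and *Insig1*, which holds the sterol sensor back, fell by 0.76.

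Of 14 patrolling monocyte genes 7 rose and 0 fell (median 0.71). *Fcgr4*, which encodes the CD16.2 antigen that the sort of these cells selected to be low, was 40.6, 32.1 and 35.6 RPM in wild-type and 112, 157 and 119 RPM in *Rnaset2*-/- libraries, a log2 fold change of 1.92 ± 0.150 (SE, adjusted p = 1.1e-05). *Eno3*, *Cd274* (PD-L1), *Treml4* and *Adgre4* rose by 1.43, 1.03, 1.01 and 0.88. The fractalkine receptor *Cx3cr1* was 70.5, 69.7 and 96.6 RPM and 114, 82.9 and 87.2 RPM and did not pass the test. Of 17 classical monocyte genes 4 rose and 2 fell (median 0.17), and their summed levels overlapped between the genotypes. *Ccr2* was 323, 419.6 and 380.0 RPM in wild-type and 654, 497 and 613 RPM in *Rnaset2*-/- libraries and rose by 0.77, together with *Hp*, *Plac8* and *Ms4a4c* (0.93, 0.68 and 0.72). *Cd93*, a receptor of immature myeloid cells and endothelium, fell from 120.1 ± 11.9 to 39.0 ± 13.7 RPM, and the LPS co-receptor *Cd14* fell by 0.62. *Ms4a4c* and *Plac8* did not pass without *Rnaset2*-/- replicate 1, which left 2 classical monocyte genes that rose, and *Cd14* did not pass without *Rnaset2*-/- replicate 1 or 3. *Ccr2* and *Cd14* did not pass with all 13 splenic libraries in 1 fit.

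Granule genes of myeloid progenitors rose strongly but unevenly. In the progenitor list 7 of 14 genes rose and 3 fell. The largest log2 fold change was that of *Mpo* (myeloperoxidase), 2.65, whose mean over the 6 libraries was below 10 RPM and which is named here after its values were seen, with 1.32, 1.46 and 1.89 RPM in wild-type and 8.17, 14.8 and 22.3 RPM in *Rnaset2*-/- libraries. *Elane* (neutrophil elastase, on chromosome 10 from 79886247 to 79888215) was 79.1, 86.9 and 86.2 RPM in wild-type and 292, 326 and 695 RPM in *Rnaset2*-/- libraries. *Ctsg* (cathepsin G) was 59.4, 54.9 and 54.5 RPM and 187, 203 and 502 RPM, and *Prtn3* (proteinase 3) was 152, 146 and 161 RPM and 457, 353 and 1063 RPM. Replicate 3 was the highest in all 3 of them, and replicates 1 and 2 were also above every wild-type library. The *Rnaset2*-/- libraries all lay above the wild-type ones in 18.7% of tested genes. *Ms4a3*, a marker of granulocyte and monocyte progenitors, and *Gfi1*, a repressor that guides granulocyte fate, rose by 2.06 and 1.43. The genes that fell included *Flt3*, the receptor of early and dendritic progenitors (20.9 to 3.30 RPM). The summed level of the list was 518 to 549 RPM in wild-type and 1213 to 2931 RPM in *Rnaset2*-/- libraries. With all 13 splenic libraries in 1 fit, 2 of these genes rose.

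Neutrophil genes rose in 7 of 18 and fell in 0, with a median of 0.60. *Wfdc21* was 188, 204 and 164 RPM in wild-type and 472, 853 and 1000.3 RPM in *Rnaset2*-/- libraries, and the lectin *Fcnb* of immature granulocytes was 366, 440.5 and 394 RPM and 695, 1349 and 1571 RPM. *S100a8*, an alarmin that classical monocytes also express, was 4012, 3315 and 3910.4 RPM and 4718, 8581 and 9644 RPM. *Rnaset2*-/- replicate 1 was the lowest of its group in each of these genes. *Ltf* and *Lrg1* rose by 1.07 and 1.60. *Ly6g*, the marker gated out, was 31.8, 29.2 and 33.5 RPM in wild-type and 24.2, 65.0 and 72.0 RPM in *Rnaset2*-/- libraries, so the groups overlapped. The summed level of the list was 33129 to 35441 RPM in wild-type and 36078 to 63423 RPM in *Rnaset2*-/- libraries, and 14 genes rose without *Rnaset2*-/- replicate 1 and 0 with all 13 libraries in 1 fit. In *Rnaset2*-/- replicate 1 the neutrophil list was shifted by 0.18 and the mitosis list by 1.07. The progenitor list was shifted by 0.29, 0.67 and 1.28 in replicates 1, 2 and 3. In the same order the mitosis list was shifted by 1.07, 1.18 and 1.43 and the replication list by 0.46, 0.60 and 0.95. The part of neutrophil and progenitor RNA in the rise of division genes was not tested.

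**Figure D4:**
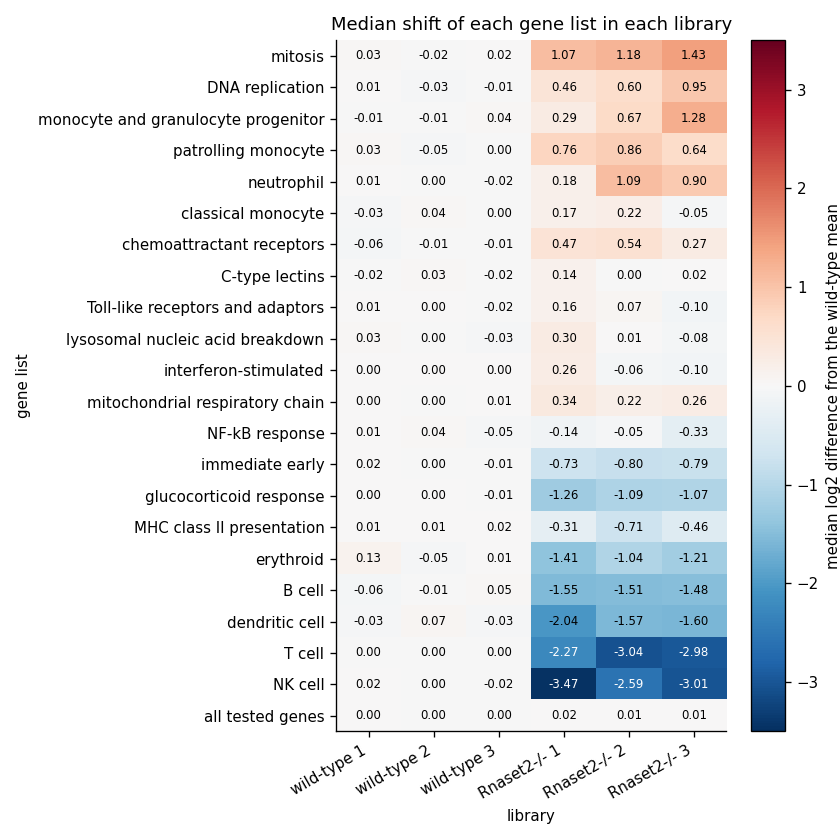
Each cell gives the median, over the tested members of a gene list, of the log2 difference between a library and the mean of the 3 wild-type libraries (red above, blue below). The wild-type libraries stay near 0, and among *Rnaset2*-/- libraries the progenitor list runs over 0.29, 0.67 and 1.28 in replicates 1, 2 and 3 and the neutrophil list over 0.18, 1.09 and 0.90.

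Receptors for chemoattractants, pathogens and immune complexes changed in both directions, and over all tested genes 9.77% rose and 12.5% fell. Of 16 chemoattractant receptor genes 7 rose and 4 fell. Beside *Fpr1*, the leukotriene B4 receptor *Ltb4r1* rose, from 58.3 ± 8.67 to 102 ± 15.1 RPM, whereas *S1pr1*, by which cells leave lymphoid organs along sphingosine-1-phosphate, fell from 19.9 ± 1.87 to 3.11 ± 1.38 RPM. *Ccr7* and *Gpr183* fell as well, by 2.65 and 0.82. These 3 genes are also expressed by lymphocytes and dendritic cells, whose markers fell, and the part of those cells was not tested. In the *Cd300* family 2 of 7 rose, *Cd300e* and *Cd300ld*, the latter by 0.89. Among C-type lectins 6 of 17 rose and 4 fell. *Clec12a*, an inhibitory receptor for uric acid crystals, was 220.0, 258 and 214 RPM in wild-type and 541, 576 and 714 RPM in *Rnaset2*-/- libraries. *Clec5a* and *Clec4b2* rose by 1.08 and 1.40, and *Clec10a* and *Cd209a*, which dendritic cells carry too, fell by 1.09 and 2.24. Among Fc receptors and genes of ITAM signaling 5 of 25 rose and 4 fell. The activating receptors *Trem3* and *Trem1* rose by 1.61 and 0.77, whereas *Trem2*, a lipid receptor of tissue macrophages, and the neonatal Fc receptor *Fcgrt* fell by 0.88 and 0.83. Without wild-type replicate 1 or 3, *Trem2* did not pass, and 2 genes of the list fell without wild-type replicate 1, wild-type replicate 3 or *Rnaset2*-/- replicate 3. The kinase *Syk*, at 297 to 346 RPM in wild-type and 259.9 to 314 RPM in *Rnaset2*-/- libraries, did not pass the test. The medians of these 4 lists were 0.51, 0.39, 0.07 and 0.07, and those of the C-type lectins and Fc receptors were -0.05 and -0.04 without scaling factors.

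Among Toll-like receptors and their adaptors 4 of 32 rose and 5 fell, against 9.77% and 12.5% of all tested genes, with a median of 0.06 (-0.05 without scaling factors). *Tlr13*, on chromosome X from 106143204 to 106160493 (GRCm38), was 47.1, 44.8 and 45.5 RPM in wild-type and 157, 124 and 97.0 RPM in *Rnaset2*-/- libraries, and its log2 fold change was 1.53 ± 0.154 (SE, adjusted p = 5.64e-05). All *Rnaset2*-/- libraries lay above the wild-type libraries, which was so for 18.7% of tested genes, and *Rnaset2*-/- replicate 1 was the highest. *Tlr4*, the receptor for LPS, was 38.4, 41.6 and 38.2 RPM and 68.3, 62.5 and 66.7 RPM. *Tlr3*, which senses double-stranded RNA, fell from 8.23 ± 1.99 to 2.44 ± 0.745 RPM. *Tlr7*, the receptor for degradation products of single-stranded RNA, was 263, 253 and 209.8 RPM in wild-type and 219.5, 219 and 161 RPM in *Rnaset2*-/- libraries and did not pass the test, nor did the chaperone *Unc93b1*, at 1363 to 1530.5 RPM and 1279.8 to 1558 RPM. Downstream of the receptors, *Irak3*, the inhibitory member of the IRAK kinases, rose from 117, 121 and 112 RPM to 217, 302 and 234 RPM, and *Pik3ap1*, the adaptor that links TLRs to PI3K, rose from 197, 189 and 185 RPM to 466, 508 and 490.4 RPM.

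Of 15 tested genes that break down or transport nucleic acids and nucleosides 6 rose and 3 fell. The largest rise was that of *Upp1* (uridine phosphorylase), which splits uridine into uracil and a sugar phosphate. It was 1.87, 2.15 and 1.26 RPM in wild-type and 12.8, 17.0 and 15.3 RPM in *Rnaset2*-/- libraries (log2 fold change 2.63 ± 0.191, adjusted p = 7.34e-06), and it is named after its values were seen, since its mean was below 10 RPM. *Rnaseh2b*, a subunit of the nuclease that removes RNA from hybrids with DNA, rose from 24.9 ± 2.02 to 58.2 ± 6.81 RPM, and adenosine deaminase *Ada* rose by 1.20. The lysosomal acid phosphatase *Acp2* rose from 43.8 ± 4.53 to 70.4 ± 4.71 RPM. The lysosomal exonuclease *Pld3* fell from 34.8 ± 1.66 to 15.5 ± 1.77 RPM, beside *Sidt1* above. *Slc29a3*, the transporter that carries nucleosides out of lysosomes, was 168, 163 and 198 RPM in wild-type and 187, 111 and 145 RPM in *Rnaset2*-/- libraries and did not pass the test.

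Most genes that respond quickly to stimulation fell. Of 31 immediate early genes 0 rose and 20 fell, against 9.77% and 12.5% of all tested genes, with a median of -0.71. The AP-1 subunit *Jun* was 1736, 1763 and 1684 RPM in wild-type and 734, 537 and 648 RPM in *Rnaset2*-/- libraries, and its partner *Fosb* was 337, 342 and 357 RPM and 138, 106 and 93.8 RPM. *Hspa1a*, *Ier5* and *Maff* fell by 2.30, 1.96 and 1.85. Genes known to respond to glucocorticoids fell in 9 of 12 and rose in 0 (median -1.05). *Per1*, a clock gene with a glucocorticoid response element, was 539, 524 and 619 RPM in wild-type and 158, 119 and 133 RPM in *Rnaset2*-/- libraries. *Ddit4*, an inhibitor of mTORC1, was 279.7, 318 and 269 RPM and 32.9, 43.4 and 31.7 RPM, and *Klf9*, *Tsc22d3* (GILZ) and *Zbtb16* fell by 2.05, 1.19 and 1.08. In replicates 1, 2 and 3 of *Rnaset2*-/- the immediate early list was shifted by -0.73, -0.80 and -0.79 and the glucocorticoid list by -1.26, -1.09 and -1.07, nearly level, while the NK cell list was shifted by -3.47, -2.59 and -3.01 in the same libraries, and its part was not tested.

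NF-κB response genes were divided, with 3 of 29 that rose and 10 that fell (median -0.12). The chemokines *Cxcl2* and *Ccl2* fell from 198 ± 17.0 to 34.4 ± 9.91 RPM and from 233 ± 8.78 to 57.2 ± 23.2 RPM, and the inhibitors *Nfkbia* and *Tnfaip3* fell by 1.32 and 1.26. *Il1b* rose from 220.2, 228 and 206 RPM in wild-type to 425, 614 and 469 RPM in *Rnaset2*-/- libraries. In the list of cytokines 3 of 17 rose and 3 fell. *Il1rn*, the natural antagonist of IL-1, rose beside *Il1b*, from 14.0 ± 0.518 to 32.6 ± 7.78 RPM, *Il27* rose by 0.65, and *Il15* fell by 1.03. *Tnf*, *Il6* and *Il10* were low and did not pass the test. *Tnf* was 1.25, 0.486 and 1.26 RPM in wild-type and 0.378, 1.72 and 2.94 RPM in *Rnaset2*-/- libraries, *Il6* was 1.73, 1.46 and 2.03 RPM and 0.803, 1.27 and 0.380 RPM, and *Il10* was 2.64, 1.04 and 2.03 RPM and 2.36, 4.90 and 1.14 RPM. *Ifnb1* was at most 0.971 RPM in any of the 6 libraries and was not tested.

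Of 34 interferon-stimulated genes 3 rose and 3 fell, or 8.82% each, near the 9.77% and 12.5% of all tested genes. Their median was 0.07 (-0.05 without scaling factors). *Gbp2*, *Ifit2* and *Oas1g* rose by 1.09, 0.82 and 0.76, and *Mx2* and *Stat2* fell by 1.17 and 0.95. *Rsad2* (viperin) was 35.7, 35.6 and 36.0 RPM in wild-type and 35.7, 15.5 and 23.3 RPM in *Rnaset2*-/- libraries, and *Mx1* was 52.4, 50.9 and 53.4 RPM and 47.6, 25.7 and 28.6 RPM. In both genes *Rnaset2*-/- replicate 1 was close to the wild-type libraries and the other 2 were lower, and neither passed the test, nor did *Ifih1* (57.7 to 87.5 and 43.9 to 76.2 RPM) or *Oas1a* (138 to 158 and 134 to 192 RPM). Without *Rnaset2*-/- replicate 1, 5 of these genes fell.

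Many genes of antigen presentation fell, as did single genes of tissue macrophages. Of 15 genes of MHC class II presentation 8 fell and 0 rose (median -0.61). *H2-Eb1* was 435, 406 and 466 RPM in wild-type and 169, 151 and 225 RPM in *Rnaset2*-/- libraries, and *H2-Aa*, *Cd80*, *H2-Oa* and *H2-DMb2* fell by 0.73, 1.18, 1.84 and 1.21. B cells and dendritic cells express these genes highly, and the markers of both fell in the same libraries. The part of those cells in the fall of the MHC class II genes was not tested. Without *Rnaset2*-/- replicate 2, *H2-Aa* did not pass and 5 genes of the list fell. *Nr1h3*, which encodes the sterol receptor LXRα, rose from 10.8 ± 1.27 to 17.3 ± 3.45 RPM. The cholesterol exporter *Abca1* fell from 30.5 ± 2.69 to 10.7 ± 1.99 RPM, *Apoe* from 64.2 ± 0.455 to 29.8 ± 14.3 RPM, and *Axl*, a receptor for dying cells, from 36.8 ± 4.06 to 11.8 ± 1.37 RPM. *Mertk*, *Cd5l* (AIM) and *C1qb* were low in wild-type libraries, at 4.59, 16.7 and 30.8 RPM, and fell by 1.89, 1.24 and 1.08, and *Cd5l* and *C1qb* did not pass with all 13 splenic libraries in 1 fit. *Rxra* was 239 to 257 RPM and 145 to 178 RPM, and its change of -0.49 did not reach 1.5-fold.

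Of 38 transcription factors of myeloid cells 4 rose and 12 fell. This count and those of the lists that follow stand beside 9.77% and 12.5% of all tested genes. *Cebpa*, which drives myeloid commitment and restrains division, was 320.0, 324 and 346 RPM in wild-type and 116, 117 and 121 RPM in *Rnaset2*-/- libraries, a log2 fold change of -1.36 ± 0.0837 (SE, adjusted p = 3.17e-06). *Irf4* was 105, 98.5 and 93.3 RPM and 35.3, 25.7 and 31.2 RPM. The groups did not overlap in either gene, which was so in the lower direction for 32.4% of tested genes. *Bach2* fell by 1.69, and *Pparg* rose by 1.17. In tissue adhesion and migration 2 of 23 rose, *Cd63* and *Pecam1* (1.69 and 1.31), and 4 fell, among them *Ahnak* and *Itgax* (-1.31 and -0.84). *Ahnak* was 2641, 2289 and 2631 RPM in wild-type and 1095, 917 and 814 RPM in *Rnaset2*-/- libraries. In ERK pathway feedback 1 of 11 rose, which was *Dusp16*, and 4 fell, among them *Spry2* and *Dusp6* by 1.13 and 0.70, the latter not without *Rnaset2*-/- replicate 3. In the Wnt and β-catenin list 5 of 14 fell and 0 rose, and *Tcf7* and *Lef1*, which led it, are also T cell markers. *Ctnnb1*, for β-catenin itself, had a log2 fold change of 0.25, below 1.5-fold. In growth factor receptors 1 rose and 2 fell of 20, in PI3K, AKT and mTOR 1 and 1 of 22, and in apoptosis regulators 1 and 1 of 18. *Mtor* was 24.1 to 32.0 RPM in wild-type and 19.1 to 28.3 RPM in *Rnaset2*-/- libraries and did not pass.

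The Ly6Clow macrophages of the same organ, 4 libraries from *Rnaset2*-/- and 3 from wild-type mice, showed which of these changes differed between the subsets. The effect of genotype differed at an adjusted p below 0.05 for 1705 of 10838 genes (15.7%), in a limma interaction term over 13 libraries, and it was more positive in Ly6Chi macrophages for 777 (7.17%) and more negative for 928 (8.56%). The count was 878 to 939 when 1 of the 3 wild-type Ly6Chi libraries was left out. *Tlr13* rose in Ly6Chi macrophages and had a log2 fold change of -0.88 in Ly6Clow macrophages, where it was 107, 86.5 and 74.5 RPM in wild-type and 35.2, 41.4, 60.1 and 56.7 RPM in *Rnaset2*-/- libraries. The difference between the effects was 2.43 ± 0.313 (SE, adjusted p = 0.000733). *Dusp16* had a log2 fold change of 0.00 in Ly6Clow macrophages, *Cd300e* one of 0.51 and *Tmx1* one of -0.07, and all 3 effects differed from those in Ly6Chi macrophages. *Il10* was 4.61, 5.56 and 7.52 RPM in wild-type Ly6Clow and 80.4, 55.8, 157 and 167 RPM in *Rnaset2*-/- Ly6Clow libraries, and its effects of 3.97 in this subset and 0.40 in Ly6Chi macrophages differed (adjusted p = 0.00317). For *Fpr1*, *Fcgr4* and *Mki67* the log2 fold changes in Ly6Clow macrophages were 2.50, 2.29 and 1.76, and the differences of 0.30, -0.35 and -0.78 did not pass the test. The NK cell and T cell lists summed to 248 to 371 and 55.6 to 78.6 RPM in wild-type Ly6Clow libraries, below the levels in wild-type Ly6Chi libraries. In *Rnaset2*-/- Ly6Clow libraries they summed to 33.6 to 179 and 22.3 to 77.4 RPM. The fall of the NK cell sum was thus seen in both subsets, while the T cell sums of Ly6Clow libraries overlapped between the genotypes.

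Markers of other cells also moved with the genotype in the Ly6Clow libraries. The neutrophil list summed to 1263 to 2703 RPM in wild-type and 3837 to 44264 RPM in *Rnaset2*-/- Ly6Clow libraries, and the progenitor list to 63.7 to 129.7 RPM and 98.9 to 1357 RPM. The plasma cell list summed to 191 to 224 RPM and 376 to 1704 RPM, and the erythroid list to 60.6 to 143 RPM and 112 to 1457 RPM. *Rnaset2*-/- Ly6Clow replicates 1 and 2 stood above the other 2 in the neutrophil, progenitor and plasma cell lists. Without these 2 libraries, left out after the data were seen, the effect differed for 2616 of 10715 genes, 1552 of which were among the 1705 with the same sign. The differences for *Tlr13* and *Il10* were then 2.07 and -4.26, and that for *Fcgr4*, at -0.62, passed the test (adjusted p = 0.0352 in limma). For *Mki67* the log2 fold change in Ly6Clow macrophages was then 0.72, and the difference of 0.27 did not pass. The differences for the mitosis genes *Nusap1*, *Anln*, *Tpx2*, *Bub1b* and *Cdca8* were 2.05, 2.22, 1.33, 1.23 and 1.05 and now passed. Those for *Cdc45*, *Elane* and *Ctsg* (1.03, 1.55 and 1.39) passed as well, while those for *Uhrf1* and *Prtn3* (0.91 and 0.36) did not. The part of other cells in the differences between subsets was not tested.

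**Figure D5:**
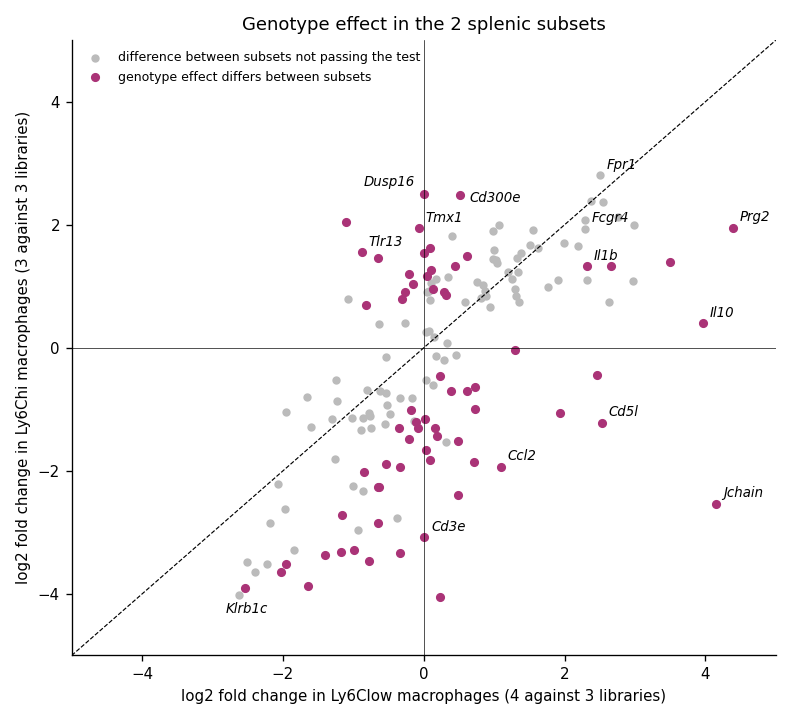
The log2 fold change in Ly6Chi macrophages is plotted against that in Ly6Clow macrophages for the named genes, from 1 fit of 13 libraries, with a dashed line of equal effects and genes whose effects differed at an adjusted p below 0.05 in purple. *Tlr13*, *Dusp16* and *Tmx1* lie above the line, and *Jchain*, *Cd5l* and *Il10* lie below it.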

How the data were processed

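RNA of sorted cells was amplified with the Ion AmpliSeq Transcriptome Mouse kit, sequenced on an Ion Proton and counted per gene by the authors with the AmpliSeqRNA plug-in version 5.2.0.3 of Torrent Suite 5.2.2 (build mm10, per the submitters' processing notes). The deposited values are RPM, normalized by the authors to the reads of each library, and reads came back as whole numbers from them. The 6 splenic Ly6Chi columns were scaled with relative log expression factors, log2(RPM + 1) was fitted with limma 3.58.1 (eBayes with trend, R 4.3.3), and p-values were adjusted by the Benjamini-Hochberg method over the 10398 genes that reached 1 RPM in 3 or more libraries. Called genes changed by >1.5-fold with an adjusted p below 0.05. On simulated data with 3-fold changes the fit recovered 198 of 200 changed genes and called 17 of 10152 unchanged genes, and the test of the difference between subsets, fitted on 13 libraries, recovered 150 of 200 and called 9 of 10464. Printed RPM are as deposited, without scaling factors, and medians of lists are over tested members. Genes named are the 15 that rose and the 15 that fell most among called genes with a mean of at least 10 RPM and no overlap between groups, the 5 members of each list with the largest change at that level, and genes that the study or the sort names. The members and lists were chosen with earlier results of these data known. Alternatives were edgeR 4.0.16 and DESeq2 1.42.0 on the whole reads, an added value of 0.1, no filter, no scaling, all 13 splenic libraries, a replicate block, reads thinned to 1 depth, >2-fold, each library left out and, chosen after seeing the data, the difference between subsets without *Rnaset2*-/- Ly6Clow replicates 1 and 2. The level of 3 reads is given for scale only, and the tests used the filter of 1 RPM instead. RefSeq promoter windows and GENCODE vM21 coordinates were of GRCm38. Columns of the liver were not used, and 1 gene list and some single genes are not reported here.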

Additional observations from a re-analysis of the deposited data

Results flagged for a closer look

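The effect of genotype was tested in both splenic subsets for 160 of the genes named in the report. For 67 of them it differed between Ly6Chi and Ly6Clow macrophages at an adjusted p below 0.05 in the limma interaction term. The share over all genes was 15.7%. Many of the named genes were chosen for large changes in these same Ly6Chi libraries, which enter the interaction. A higher share among them was therefore built into the choice and is not a result. The values that follow are the log2 fold change in Ly6Chi minus that in Ly6Clow macrophages, and no cause of a difference was tested. Over 16 alternative fits of the interaction, 40 of these 67 genes passed in every one and 27 were lost in at least 1. Lost in 5 to 9 of them were 18 genes, with *Treml4* lost in 9 and *Aldoa*, *Gadd45g*, *Il1b* and *Ifng* in 8 each. *Gzmb*, *Nfkbia*, *Rnaseh2b*, *Pld3* and *Rxra* were lost in 7 each, *Il2rb*, *Adgre4*, *Bach2* and *Tlr3* in 6 each, and *Klra8*, *Hspa1a*, *Il1rn* and *Tlr4* in 5 each. All 67 passed with the same sign without *Rnaset2*-/- Ly6Clow replicates 1 and 2.

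The effect was more positive in Ly6Chi macrophages for 20 genes. Among surface receptors and signaling genes these were *Cd300e* (1.97), *Ly6i* (3.15), *Tlr13* (2.43), *Tlr4* (0.55), *Clec12a* (1.53), *Trem3* (1.55), *Trem1* (1.10), *Treml4* (1.19), *Adgre4* (1.16), *Dusp16* (2.50), *Pik3ap1* (0.87), *Il1rn* (1.16), *Pparg* (1.40) and *Plac8* (1.52). Among enzymes and other genes they were *Tmx1* (2.01), *Gpi1* (0.82), *Aldoa* (0.62), *Ndufs6* (1.12), *Eno3* (2.10) and *Rnaseh2b* (0.88).

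The effect was more negative in Ly6Chi macrophages for 47 genes. Lymphocyte, plasma cell and red cell genes were *Car1* (-4.27), *Klra8* (-1.36), *Klra9* (-1.56), *Il2rb* (-2.23), *Gzmb* (-1.60), *Ctsw* (-1.98), *Cd3g* (-3.01), *Cd3e* (-3.09), *Gimap8* (-2.30), *Ablim1* (-2.14), *Ifng* (-1.55), *Jchain* (-6.68), *Lef1* (-2.20), *Bach2* (-1.69) and *S1pr1* (-1.61). Genes of tissue macrophages, adhesion and lysosomes were *Cd93* (-1.999), *Axl* (-1.62), *Cd5l* (-3.75), *C1qb* (-2.99), *Mertk* (-2.58), *Pecam1* (-1.33), *Sidt1* (-2.69), *Pld3* (-1.72) and *Rxra* (-0.69). Immediate early and glucocorticoid response genes were *Hspa1a* (-1.64), *Ier5* (-1.59), *Maff* (-1.91), *Fosb* (-1.28), *Jun* (-1.22), *Klf9* (-1.17), *Per1* (-1.36), *Tsc22d3* (-1.19), *Gadd45b* (-1.09), *Gadd45g* (-1.32) and *Tob1* (-1.09). Inflammatory and antiviral genes were *Cxcl2* (-2.87), *Ccl2* (-3.03), *Nfkbia* (-0.94), *Il1b* (-0.999), *Il15* (-0.83), *Il10* (-3.57), *Rsad2* (-2.90) and *Tlr3* (-1.46). Granule protein genes of eosinophils were *Prg2* (-2.44) and *Epx* (-2.11). The remaining genes were *Rpl30* (-1.36) and *Syk* (-1.33). For *Jchain* and *Il10* the log2 fold changes in Ly6Clow macrophages were 4.15 and 3.97. The plasma cell list summed to 191 to 224 RPM in wild-type and 376 to 1704 RPM in *Rnaset2*-/- Ly6Clow libraries. *Jchain* is itself a member of this list and part of these sums. The part of plasma cells in the difference of *Jchain* was not tested. The effects on *Il1b* were 1.32 in Ly6Chi and 2.32 in Ly6Clow macrophages.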

How the results depend on the processing

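When each library was left out in turn, 857 to 1243 genes rose and 875 to 1378 fell. The filter was applied anew each time, so that 10053 to 10340 genes were tested in place of 10398. Recovered whole reads gave 1046 and 1345 genes with edgeR and 1067 and 1346 with DESeq2, an added value of 0.1 gave 1064 and 1339, no filter 871 and 1343, all 13 splenic libraries 699 and 975, and a threshold of >2-fold 329 and 604. The labels do not say whether replicate numbers pair the libraries. Deviations of same-numbered libraries correlated by 0.02, 0.03 and 0.01, and those of differently numbered ones by -0.05 to 0.02. Values so near 0 in groups of 3 can neither show nor exclude pairing. With the replicate number as a block 1036 genes rose and 1313 fell. The count of genes whose effect differed between subsets was 1639 with the block, 1552 with an added value of 0.1, and 878 to 2308 when 1 library was left out, with 878, 939 and 898 without wild-type Ly6Chi replicates 1, 2 and 3, 1128 and 1079 without wild-type Ly6Clow replicates 2 and 3, and 981 without *Rnaset2*-/- Ly6Chi replicate 2. It was 2616 without *Rnaset2*-/- Ly6Clow replicates 1 and 2, an alternative chosen after seeing the data. With all 13 libraries in 1 fit fewer genes fell in the plasma cell (2), erythroid (4) and MHC class II (5) lists, and 0 interferon-stimulated genes rose. Of 2237 values of named genes under alternatives, 2174 kept their side of the threshold, 47 no longer passed, 8 newly passed and 8 changed sign. With all 13 libraries 32 of these genes no longer passed, among them *Ctsg*, *Prtn3*, *Ms4a3*, *Fcnb*, *S100a8*, *Dut*, *Uhrf1*, *Mki67*, *Ccr2*, *Irf4*, *Cd5l*, *C1qb*, *Gbp2*, *Ifit2*, *Il27* and *H2-Aa*. Values that changed sign belonged to genes that did not pass the test, and with 1 library left out their log2 fold changes ran from -0.00963 to 0.755 (*Il10*), -0.00180 to 0.252 (*Oas1a*), -0.332 to 0.0107 (*Slc29a3*), -0.122 to 0.0145 (*Syk*) and -0.00482 to 0.109 (*Unc93b1*), the last being -0.062 without scaling factors. The cause of these shifts was not tested. Genes near 1 RPM rest on about 14 to 21 reads, which limits their precision.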

Other observations

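Families of genes were also counted by the stem of their symbols, and these families were chosen after the values were seen. Their counts stand beside 9.77% of all tested genes that rose and 12.5% that fell. Histone genes, whose products package newly made DNA, rose in 14 of 20 tested members and fell in 0, with a median log2 fold change of 0.92. The linker histone gene *Hist1h1b* rose from 353 ± 15.6 RPM in wild-type to 769 ± 109 RPM in *Rnaset2*-/- libraries (mean ± SD, n = 3), although reads can be divided uncertainly among such similar genes. Kinesins, the motors that walk on microtubules, rose in 12 of 26 and fell in 1, led by the mitotic motor *Kif20a* (1.40). Nucleoporins rose in 6 of 18 and fell in 0. Fanconi anemia genes, which repair crosslinked DNA, rose in 4 of 10 and fell in 0.

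CC chemokine genes fell in 8 of 10 and rose in 0, with a median of -1.05. *Ccl5*, which NK and T cells express highly, fell by 2.83 and *Ccl7*, a ligand of CCR2, by 1.26. Serpins, a family of protease inhibitors, fell in 8 of 14 and rose in 1. That gene was *Serpinb1a*, an inhibitor of neutrophil granule proteases, which rose from 79.6 ± 10.8 to 226 ± 99.5 RPM. Potassium channel genes fell in 8 of 17 and rose in 0, and *Gimap* GTPase genes of lymphocytes fell in all 7. Of 180 solute carrier genes 7 rose and 20 fell, and of 222 Zfp genes 6 rose and 13 fell. Of 13 subunits of the V-ATPase, the pump that acidifies lysosomes, 2 rose and 1 fell, and of 13 cathepsins 1 rose, which was *Ctsg*, and 3 fell.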
